A study of Mus musculus with 2 samples.

Results

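The genes described here are 10 genes of Toll-like receptor signalling and of the feedback on the transcription factor NF-κB. They comprise the sensors and co-receptors *Tlr2*, *Tlr4*, *Cd14* and *Nod2*, the adaptor *Myd88*, the inhibitors *Irak3*, *Nfkbia*, *Nfkbiz* and *Tnfaip3*, and the cytokine gene *Tnf*. They were chosen by name, with earlier results of these data known. Their probes are those other than controls that the scanner files assign to one of these symbols. All 10 were found, as 11 of 39429 probes and 38 of 43020 spots, among 30133 genes on the array. Skin RNA was taken on the day of birth (postnatal day 0) from wild-type (*Pnpla1*+/+) and homozygous knockout (*Pnpla1*-/-) mice on the C57BL/6N strain background. RNA of 6 animals was combined for each genotype and hybridized with 1 dye (Cy3) to 1 Agilent mouse array, so that each genotype has 1 value per spot and no replicate. The knockout allele came from a knockout-first allele made in C57BL/6N embryonic stem cells, from which flippase had excised the reporter and selection cassettes. The deletion was present in all tissues, and the controls were wild-type littermates. *Pnpla1* itself had an intensity of 579 in the wild-type and 114 in the knockout pool, and its probe was still well above background in the latter.

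Toll-like receptors sense molecules of microbes and of damaged cells. TLR2 reads bacterial lipoproteins together with TLR1 or TLR6, and TLR4 reads lipopolysaccharide with the help of CD14 and MD-2, while NOD2 detects a fragment of bacterial peptidoglycan inside the cell. The adaptor MyD88 recruits kinases of the IRAK family and TRAF6, which activate the IκB kinase (IKK). IKK marks IκBα, the product of *Nfkbia*, for degradation, and the NF-κB dimer it held then enters the nucleus. Several NF-κB target genes encode brakes on the same route. IκBα is made again and takes NF-κB out of the nucleus, A20 (*Tnfaip3*) edits ubiquitin chains upstream of IKK, and IRAK-M (*Irak3*) blocks the receptor complex. IκBζ (*Nfkbiz*) is a nuclear IκB that also switches on a subset of antimicrobial and inflammatory genes. In skin the route runs in keratinocytes as well as in resident and incoming leukocytes.

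The promoters of *Nfkbia*, *Tnfaip3* and *Tlr2* are shown because, of the 7 genes with a window in the RefSeq table used here, these 3 hold a match to the κB consensus that NF-κB binds. Each run gives the 250 bases before the transcription start, 5′ to 3′ on the strand of the gene, from RefSeq on GRCm38.p6, and capitals mark the match on either strand.

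*Nfkbia* (chr12:55492648-55492897, minus strand): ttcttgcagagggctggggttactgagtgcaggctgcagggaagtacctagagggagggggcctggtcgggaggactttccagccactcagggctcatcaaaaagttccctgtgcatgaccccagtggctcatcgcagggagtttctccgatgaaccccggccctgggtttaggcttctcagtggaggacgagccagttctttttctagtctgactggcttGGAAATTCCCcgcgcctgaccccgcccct

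*Tnfaip3* (chr10:19015411-19015660, minus strand): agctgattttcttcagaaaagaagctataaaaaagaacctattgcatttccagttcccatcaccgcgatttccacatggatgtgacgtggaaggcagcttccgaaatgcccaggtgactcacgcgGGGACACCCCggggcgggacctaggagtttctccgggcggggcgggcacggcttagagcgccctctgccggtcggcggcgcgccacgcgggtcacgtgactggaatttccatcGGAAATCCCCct

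*Tlr2* (chr3:83841609-83841858, minus strand): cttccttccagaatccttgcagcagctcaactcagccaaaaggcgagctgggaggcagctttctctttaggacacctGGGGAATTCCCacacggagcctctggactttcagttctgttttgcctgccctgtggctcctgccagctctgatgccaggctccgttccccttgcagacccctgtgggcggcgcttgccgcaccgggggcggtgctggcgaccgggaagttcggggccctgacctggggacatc

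In *Nfkbia*, 19 bases lie between the match GGAAATTCCC and the start. *Tnfaip3* has 2 matches, GGGACACCCC with 115 and GGAAATCCCC with 2 bases to the start, while the window at its other annotated start has none. In *Tlr2*, matches on both strands overlap in the run GGGGAATTCCC, 162 bases from the start. None was found in the windows of *Irak3*, *Myd88*, *Nod2* and *Tnf*. Among all 32851 promoter windows of this length, 3.90% held a match and 0.143% held 2 or more. A match describes the letters of these windows, and binding was not measured.

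All 10 genes were well above background on both arrays and had a higher signal in the knockout pool. The signal of each array was divided by its 75th percentile, 2108 in the wild-type and 1734 in the knockout array, before the arrays were compared, and differences are knockout minus wild type on the log2 scale after this step. Intensities are given as deposited, before it. After scaling all 10 were at least 2-fold higher and none was lower. Over all 22374 genes with a value, the share past 2-fold was 6.70% upward and 3.04% downward. The members' median difference was 1.5 (from 1.02 to 3.59), against 0.00 over all genes. The 10 genes were chosen with earlier results of these data known, so neither contrast with all genes is unbiased. These 2 arrays allow no test, and the difference describes 2 pools of skin RNA, in which more cells of one type and more RNA per cell cannot be told apart. Counts depended on the scaling. Of the genes at least 2-fold different, 68.8% were higher, and this share was 41.2% with no scaling, 27.9% when the arrays were centred on the spike-in RNA and 58.8% after quantile normalization.

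**Figure D1:**
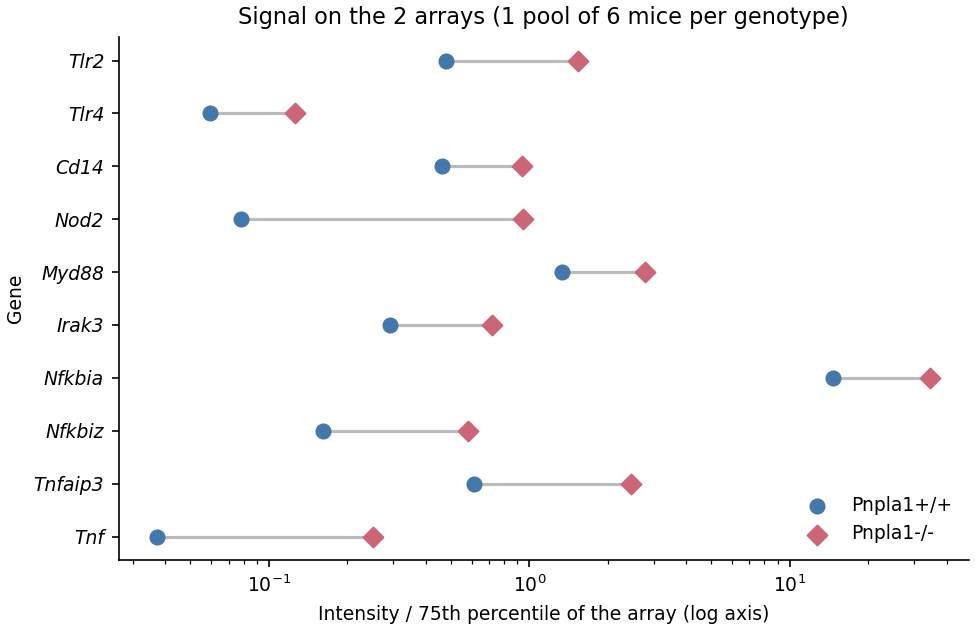
Signal of each gene divided by the 75th percentile of its array (log axis), for the wild-type pool (circles) and the knockout pool (diamonds), at the brightest probe of each gene. Every diamond lies to the right of its circle, and the distance is longest for Nod2 and shortest for Cd14; positions of different genes are not comparable, since probes differ in brightness.

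Of the receptors, *Nod2* had the largest difference among the 10 genes. Its intensity was 165 in the wild-type and 1640 in the knockout pool, which after scaling was 12.1-fold higher (log2 difference 3.59), and 0.445% of the 20680 genes measured on both arrays had a larger one. *Tlr2* was read by 10 repeated spots of 1 probe, with intensities from 960 to 1072 (mean 1006) in wild type and from 2525 to 2840 (mean 2675) in the knockout. The spots of the 2 arrays did not overlap. The scaled signal was 3.23-fold higher, with a log2 difference of 1.69 ± 0.04 (SD over 10 spots). *Tlr4* had an intensity of 126 in wild type and 219 in the knockout, 2.12-fold higher after scaling. Its other probe, designed to an Ensembl transcript, was well above background in neither pool, at 4.89 and 4.35. *Cd14*, the co-receptor of TLR4, went from 974 to 1622 and was 2.02-fold higher, the smallest difference of the 10 as reported and just past 2-fold. With cyclic loess the log2 difference of *Tlr4* was smaller than that of *Cd14* (1.06 against 1.11), as also with normexp background correction and with averaging of probes.

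*Myd88*, the adaptor shared by most Toll-like receptors and by the interleukin-1 receptors, was also read by 10 spots. They ranged from 2641 to 2998 (mean 2807) in the wild-type and from 4545 to 5197 (mean 4808) in the knockout pool, and did not overlap. The scaled signal was 2.08-fold higher, a log2 difference of 1.06 ± 0.05 (SD over 10 spots), and single spots gave values from 0.94 to 1.12, on either side of 2-fold.

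The 4 inhibitors were all higher, and *Tnfaip3* most. The intensity of *Tnfaip3* was 1296 in wild type and 4256 in the knockout, 3.99-fold higher after scaling. *Nfkbiz* went from 342 to 1011, a 3.59-fold difference. *Irak3*, at 615 and 1245, was 2.46-fold higher. *Nfkbia* had intensities of 30706 and 59937 and was 2.37-fold higher, with neither spot saturated. The order of *Irak3* and *Nfkbia* rests on log2 differences of 1.30 and 1.25, closer than the technical SD of a difference between single spots, which was 0.09 over 385 probes with at least 8 spots. *Tnfaip3* and *Nfkbiz*, at 3.99 and 3.59-fold, were separated by more than that SD. The SD is for the difference of a single gene, not for a gap between genes, and leaves out the variation between mice. It does not settle their order.

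*Tnf*, whose product itself activates NF-κB through its receptors, had the second largest difference of the 10 genes. Its 10 spots had intensities from 70.0 to 89.9 (mean 78.7) in the wild-type and from 399 to 469 (mean 437) in the knockout pool. Every knockout spot exceeded every wild-type spot. The log2 difference was 2.75 ± 0.07 (SD over 10 spots), or 6.75-fold. For single spots under an intensity of 100 in wild type the technical SD of a difference was 0.41, against 0.09 over all 385 probes.

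**Figure D2:**
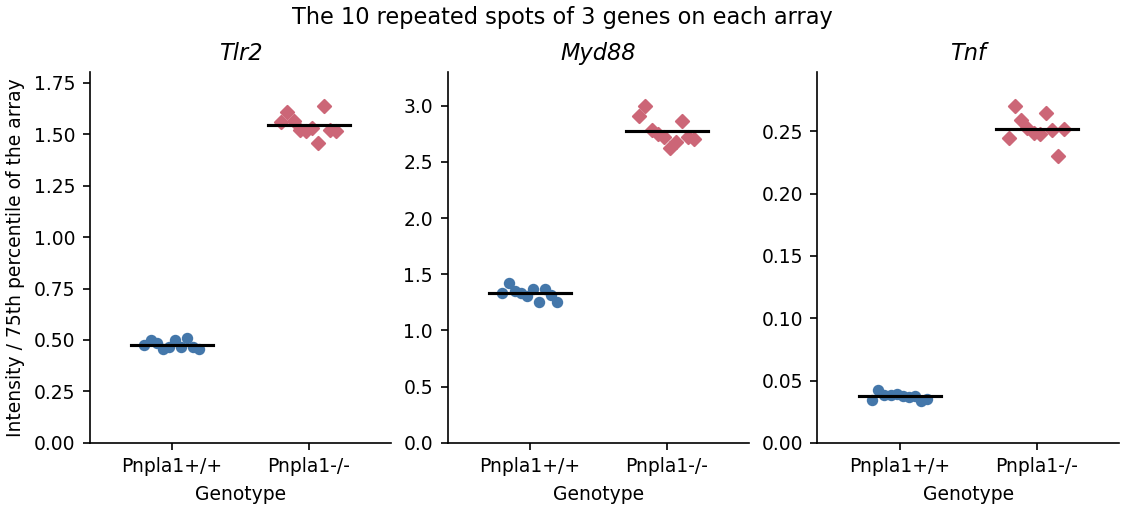
Scaled intensity of each of the 10 repeated spots of Tlr2, Myd88 and Tnf on the wild-type array (circles) and the knockout array (diamonds), with lines at the means and axes starting at 0. The 2 arrays do not overlap in any of the 3 genes; spots are technical repeats of 1 pool, not animals.

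The 10 genes divided into a group that stayed at least 2-fold higher under every alternative processing and a group that did not. *Nod2*, *Tnf*, *Tnfaip3*, *Nfkbiz* and *Tlr2* were past 2-fold in all 12 settings tried, and past 3-fold as reported. Their lowest values were 8.99-fold for *Nod2*, 4.14-fold for *Tnf*, 2.97-fold for *Tnfaip3*, 2.67-fold for *Nfkbiz* and 2.41-fold for *Tlr2*. *Irak3* was past 2-fold in 11 of 12 settings, *Nfkbia* in 10, *Myd88* in 9, *Tlr4* in 8 and *Cd14* in 7. Each of these 5 remained higher in the knockout under every setting, with the lowest values at 1.51-fold for *Cd14* and *Tlr4* and at 1.55-fold for *Myd88*. For *Tlr4* the lowest value came from averaging its measured probe with the one below background. Not every setting could move the 10 genes. None of their spots was flagged and each brightest probe was above background, so those filters left them unchanged. Averaging probes could change only *Tlr4*, and the deposited ratios use nearly the same factors. *Cd14* passed 2-fold in these settings, at a log2 difference of 1.02, and with quantile normalization (1.01) and cyclic loess (1.11).

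**Figure D3:**
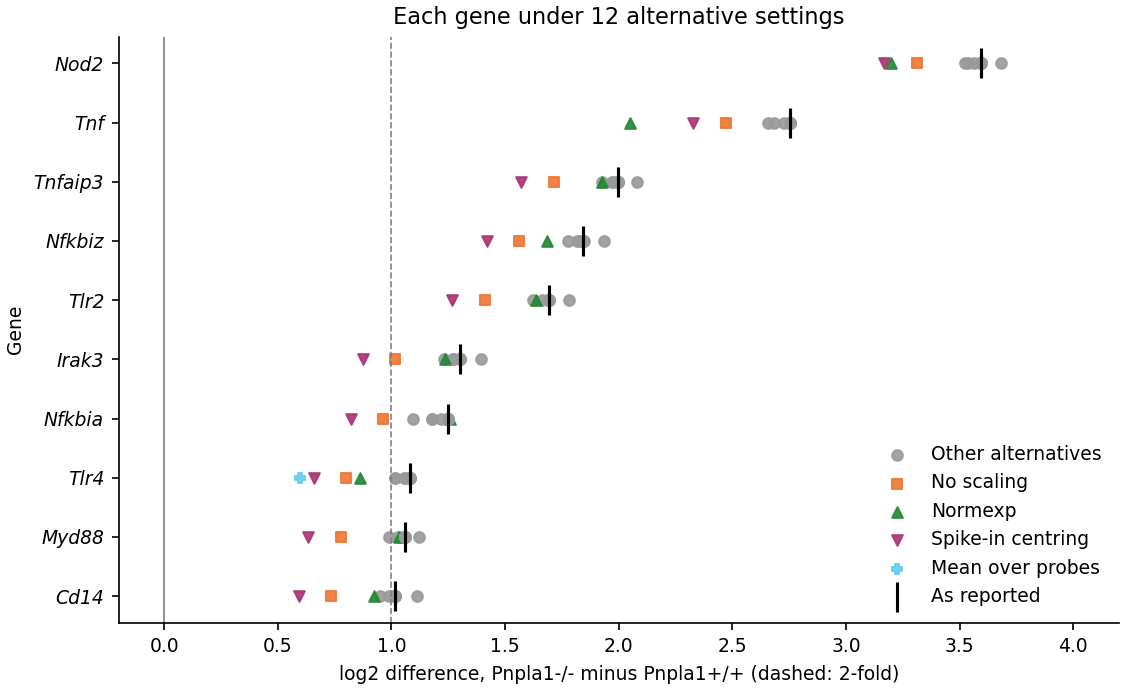
log2 difference of each gene as reported (black bar) and under 12 alternative settings (symbols), with 2-fold as a dashed line. The 5 genes at the top stay to the right of 2-fold under all settings, while Irak3, Nfkbia, Tlr4, Myd88 and Cd14 cross it, mostly with no scaling or with spike-in centring.

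The rest of the pathway was read through 8 lists with 87 genes, of which 84 had a value. Of these 33 (39.3%) were at least 2-fold higher and 1 (1.19%) was at least 2-fold lower, with a median log2 difference of 0.73. The lists were drawn up when some of their values, such as those of *Il1b* and *Cxcl1*, were already known. Several of the genes named below had intensities under 100 in wild type, where single spots are noisy.

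Among the other 10 Toll-like receptors, 5 were at least 2-fold higher (median 0.91), a count of 2 with spike-in centring or normexp background correction. *Tlr1*, a partner of TLR2, was 3.11-fold higher, with intensities of 66.8 and 171. *Tlr12* was 2.73-fold and *Tlr13*, which senses bacterial ribosomal RNA, 2.53-fold higher, the latter at 832 and 1729. *Tlr8* was well above background in the knockout only, at least 2.11-fold higher, a bound of 1.40-fold with normexp. It passed 2-fold in 5 of the 11 settings that gave a value. *Tlr11*, named after its value was seen, was well above background in wild type only, with intensities of 48.6 and 10.9. It was at least 1.84-fold lower, a bound that does not place it within 2-fold, and it passed 2-fold in 5 of the 11 settings that gave a value and was 1.20-fold with normexp. Of the co-receptors and chaperones, 3 of 7 measured genes were at least 2-fold higher, a count of 2 with no scaling and of 1 (*Lbp*) with spike-in centring. They were *Lbp*, the lipopolysaccharide-binding protein, at 3.39-fold (428 and 1194), *Ly86*, or MD-1, at 2.58-fold (1834 and 3894), and *Unc93b1*, which carries the nucleic acid-sensing receptors to endosomes, at 2.06-fold. *Ly96*, the MD-2 partner of TLR4, named here after its value was seen, lay just under 2-fold (log2 difference 0.997), with intensities of 679 and 1114.

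Cytosolic sensors were mixed. Of 8 genes, *Aim2*, a DNA sensor, was 2.75-fold higher (70.6 and 160), and *Nlrc4*, measured above background in the knockout only, at least 2.45-fold higher (1.54-fold with normexp). *Nlrp10*, a NOD-like protein of the epidermis, was lower in the knockout, with intensities of 1562 and 469 and a log2 difference of −1.45, and was the 1 gene of all 84 counted as at least 2-fold lower as reported. With no scaling or spike-in centring the count was 3, with *Tlr11* and *Nlrp3*, the latter named after its value was seen. *Casp1*, the protease of the inflammasome, was 1.99-fold higher.

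The adaptors and kinases between the receptors and IKK had the smallest median of the 8 lists. None of 11 measured genes was 2-fold higher or lower, and their log2 differences ran from −0.25 to 0.76 with a median of 0.22, which became −0.06 unscaled and −0.20 after centring on the spike-in. The largest were those of *Tirap*, the bridge between TLR2 or TLR4 and MyD88, at 0.76, *Irak4* at 0.70 and *Ticam1*, the adaptor of TLR3, at 0.52. *Myd88*, at 1.06, lay above all 11.

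The NF-κB subunits separated within their own list. *Rel* was at an intensity of 18.8 in wild type, not well above background, and of 176 in the knockout, at least 8.96-fold higher, a bound of 3.74-fold with normexp. *Nfkb2* was 2.14-fold and *Relb* 2.09-fold higher, and *Nfkb1* 1.92-fold. With no scaling or spike-in centring *Rel* alone was past 2-fold, and with the latter *Nfkb2* was at 1.59-fold and *Relb* at 1.56-fold. The other genes of the list, *Rela* and the IKK subunits *Chuk*, *Ikbkb* and *Ikbkg*, named after their values were seen, lay between −0.08 and 0.35 on the log2 scale, and the differences of *Rela*, *Ikbkb* and *Ikbkg* changed sign with spike-in centring.

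Of 16 further inhibitors of the route, 4 were at least 2-fold higher and 12 were within 2-fold (median 0.46). The count was 3 and the median 0.17 with no scaling, and 3 and 0.03 with spike-in centring. *Zc3h12a*, or regnase-1, which degrades cytokine mRNAs, went from an intensity of 285 to 3519 and was 15.0-fold higher. *Bcl3*, a nuclear IκB protein like IκBζ, went from 2158 to 14646, or 8.25-fold higher. *Nfkbie*, or IκBε, was 3.44-fold higher (328 and 928). The differences of *Zc3h12a* and *Bcl3* were larger than those of all 4 inhibitors among the 10 genes. In the TNF receptor arm 4 of 11 genes were at least 2-fold higher (3 with no scaling or spike-in centring), led by *Birc3*, or cIAP2, at 4.13-fold (384 and 1304), *Ltb*, the lymphotoxin-β gene, at 3.27-fold (230 and 618) and *Tnfrsf1b*, the second TNF receptor, at 2.88-fold (75.7 and 179).

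Of 13 measured NF-κB target genes, 12 were at least 2-fold higher (11 with no scaling and 10 with spike-in centring), with a median of 2.76, which was 1.90 with normexp background correction. *Lcn2*, which withholds iron from bacteria and is a known target of IκBζ, had intensities of 528 and 11382, a 26.2-fold difference. *Cxcl1*, a neutrophil chemokine, was 25.7-fold higher, from 38.0 to 801, or 9.95-fold with normexp, and *Il1a* 13.6-fold, from 101 to 1127. *Csf2* was above background in the knockout only, at 215 against 5.90, and was at least 10.9-fold higher, a bound of 3.74-fold with normexp. *Ccl20*, named after its value was seen, was well above background in neither pool.

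**Figure D4:**
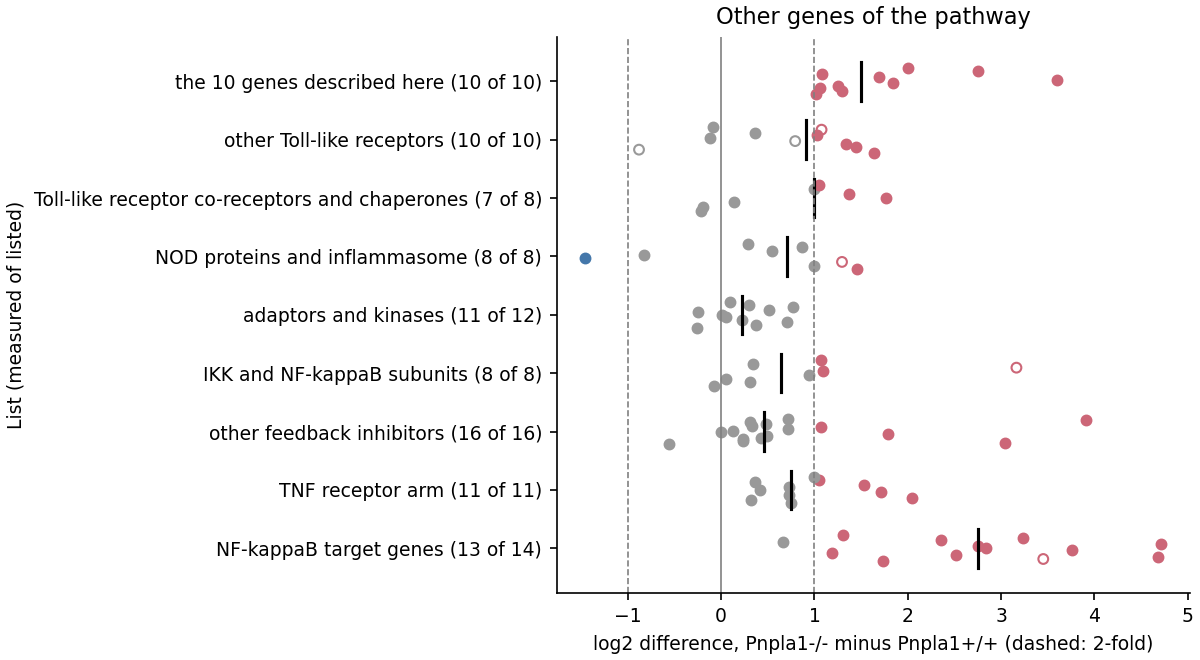
log2 differences of the 10 genes and of the 8 pathway lists, 1 point per gene with the median as a black bar, open points for bounds and dashed lines at 2-fold. The NF-kappaB target genes lie farthest to the right (median 2.76), the adaptors and kinases all lie within 2-fold, and Nlrp10 is the one point beyond 2-fold to the left, while the open point at −0.88 is a bound (Tlr11).

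Skin holds several cell types that express these receptors, and markers of some of them moved with the 10 genes. Keratinocyte markers marked both pools as skin, with *Krt5* at intensities of 220487 and 210699 and *Lor* at 243070 and 162800. *Krt14* was 2.54-fold higher (1.89-fold with spike-in centring), and the other 5 keratinocyte markers had log2 differences from −0.30 to 0.22, of which the 4 positive ones turned negative with spike-in centring. All 3 pan-leukocyte markers were at least 2-fold higher, *Ptprc* (CD45) at 2.84-fold, *Coro1a* at 2.36-fold and *Laptm5* at 2.28-fold. Their summed scaled signal was 3.57 in wild type, 80.1% of it from *Coro1a*, and 8.42 in the knockout. With no scaling or spike-in centring *Ptprc* alone stayed past 2-fold, and *Laptm5* was at 1.70-fold with the latter. *Tlr4*, *Myd88* and *Cd14*, at 2.12, 2.08 and 2.02-fold, were below these 3 values, and *Nod2*, *Tnf*, *Tnfaip3*, *Nfkbiz* and *Tlr2* above them.

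Of 7 monocyte and macrophage markers 4 were at least 2-fold higher, among them *Lyz2* at 5.09-fold, *Fcgr1* at 2.68-fold and *Adgre1* (F4/80) at 2.37-fold, a count of 2 with no scaling and of 1 (*Lyz2*) with spike-in centring. The summed signal went from 12.4 to 22.1, with *Csf1r* the brightest. All 4 measured Langerhans and dendritic cell markers were higher, *Itgax* at 7.04-fold (4.52-fold with normexp), *Cd74* at 5.51-fold and *H2-Ab1*, the brightest, at 5.37-fold, with a summed signal of 2.15 and 11.7, while *Cd207*, which defines Langerhans cells, was well above background in neither pool. Among 6 neutrophil markers, *Cxcr2* was at least 59.8-fold and *Mpo* 20.4-fold higher, or 19.9-fold and 7.89-fold with normexp, while *Ly6g* was at 1.34-fold and *Elane* at 1.04-fold, and the summed signal, most of it from *Csf3r*, was 49.0 and 51.3. The direction of *Ly6g*, *Elane* and *Csf3r* turned with spike-in centring. The part of these cells in the differences of the 10 genes was not tested.

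Other cell types did not move in this way. All 3 T cell and all 4 mast cell markers were within 2-fold as reported (*Ms4a2*, at −0.88, was past 2-fold lower in 4 of 12 settings and at −0.22 with normexp), with medians of −0.46 and −0.47 and summed signals of 0.419 and 0.431 for T cells and of 44.5 and 32.2 for mast cells. *Cd3e* made up 82.6% of the wild-type T cell sum, with a log2 difference of 0.13, while *Cd3d* was at −0.46 and *Cd247* at −0.50. *Cpa3*, the brightest mast cell marker, went from 56546 to 32445. The 4 fibroblast markers lay between −0.17 and 0.32 (summed signal 241 and 227, *Col1a2* the brightest), and the 3 endothelial markers between 0.17 and 0.39 (3.81 and 4.79, *Kdr* the brightest). With spike-in centring *Cd3e*, *Col1a1*, *Pdgfra* and the 3 endothelial markers turned to negative values.

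**Figure D5:**
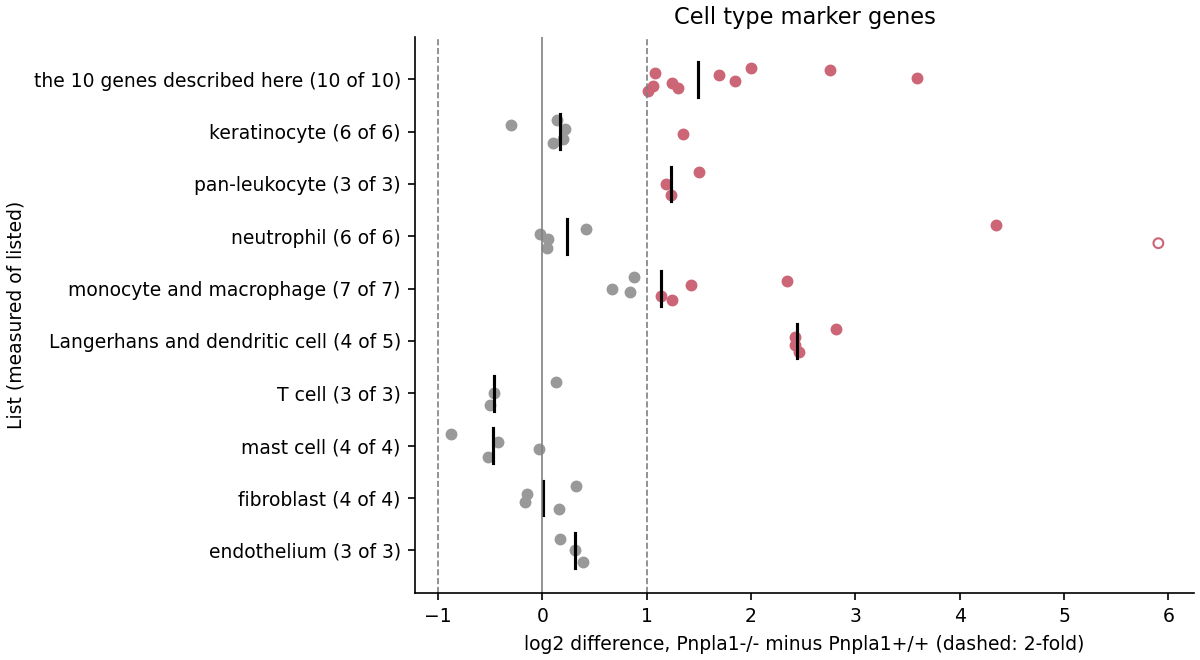
log2 differences of the 10 genes and of 9 lists of cell type markers, 1 point per gene with the median as a black bar, an open point for a bound and dashed lines at 2-fold. All points of the pan-leukocyte and the Langerhans and dendritic cell lists lie above 2-fold, and those of T cells, mast cells, fibroblasts and endothelium within it.

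On mm9, the build of the array design, the probes lie on chromosome 3 from 83640344 to 83640403 (*Tlr2*), chromosome 4 from 66503470 to 66503529 (*Tlr4*), chromosome 8 from 91212245 to 91212304 (*Nod2*), chromosome 9 from 119245322 to 119245381 (*Myd88*), chromosome 10 from 119578999 to 119579058 (*Irak3*) and from 18720776 to 18720835 (*Tnfaip3*), chromosome 12 from 56590945 to 56591440 (*Nfkbia*), chromosome 16 from 55817859 to 55817918 (*Nfkbiz*), chromosome 17 from 35336795 to 35336854 (*Tnf*) and chromosome 18 from 36884969 to 36885028 (*Cd14*). The span given for *Nfkbia* is longer than its probe. Each of these probes was designed to a RefSeq mRNA of its gene.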

How the data were processed

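RNA from skin pools of *Pnpla1*+/+ and *Pnpla1*-/- newborns was measured on 1 array each, with 6 animals to a pool. The groups come from the genotype labels. The authors processed the scans with Agilent Feature Extraction 11.5.1.1 and deposited a linear intensity per spot, background-subtracted and not scaled between arrays, with flags. The authors also deposited a ratio per spot, which equals this intensity divided by 1 factor per array (2109 and 1734).

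log2 of the processed intensity minus that of the array's 75th percentile was taken in Python 3.11.15 (numpy 2.4.6, pandas 2.3.3). Flagged spots were left out (138 and 82, none among the 38 spots of the 10 genes), repeated spots averaged as log2 values, and the brightest probe stood for its gene. Probe names were updated through RefSeq (GRCm38.p6) by accession (27502 probes), symbol (3549) or older symbol (404), and 7974 kept the name in the files. A gene above background on both arrays has a difference (20680) and on 1 array a bound (1694), where the dim side is the larger of its own signal and the lowest one still well above background. Genes were counted at 2-fold. No test, p-value or SD between animals is possible with 1 array per genotype, which sets the precision. Both arrays were on 1 slide, scanned once. The computation was tested on simulated data.

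The 10 genes, the lists and the settings were chosen with earlier results of these data known. Named were the 10 genes, the 3 largest differences of each list, bounds of at least 2-fold and *Pnpla1*; all others, among them the brightest or defining marker of a list, were named after their values were seen. Promoters were searched on both strands for the κB consensus, with members' windows on chromosome 18 left out. Alternatives used limma 3.58.1 under R 4.3.3 for quantile, cyclic loess and normexp (offset 50) settings.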

Additional observations from a re-analysis of the deposited data

How the results depend on the processing

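All 10 genes were higher in the knockout pool under each of the 12 alternative settings, and none was 2-fold lower in any. Several of the settings leave most of the 10 genes at or next to the reported value by construction. With no scaling, 6 of them were at least 2-fold higher (median 1.21), beside 998 higher and 1424 lower genes in all. With centring on 8 spike-in probes, 5 were (median 1.07), beside 829 and 2147. These settings shift the median of all genes by −0.28 and −0.43 and each gene by nearly the same amount, by construction. Normexp background correction left 8, beside 960 higher and 321 lower genes, 1281 together, and the cause was not tested. No filter on dim probes gave 4146 past 2-fold, 3041 of them higher. This setting both adds genes below background on both arrays and replaces bounds by full differences, and the part of each was not tested. It moved the median of all genes by 0.10, and cyclic loess moved the median of the 10 genes to 1.59. A threshold of 1.5-fold gave 5184 genes, 3092 of them higher, and one of 3-fold 912, of them 684 higher, with 5 of the 10 genes. Of the 84 pathway genes with a value, 33 were at least 2-fold higher as reported, 25 with no scaling and 21 with spike-in centring. No paired analysis was possible because each genotype has 1 array. No array could be left out, and no term for the slide could be fitted. Dim probes limit *Tlr4* and several pathway genes.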

Other observations

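Genes read by several probes did not always give 1 value. The neutrophil and macrophage integrin gene *Itgam* had a log2 difference of −0.03 at its brightest probe, with intensities of 11846 in wild type and 9569 in the knockout, while its other probes gave 2.84 (119 and 701) and 1.14 (46.2 and 83.4). *Tlr7* gave 0.36 at its brightest probe and 1.16 at another, from 177 to 326. Of the 3 *Relb* probes, a pair gave 1.07 and 1.12 and the dimmest 0.26. *Traf2* gave 0.998 and 0.39, and *Tollip* 0.31, 0.44 and 0.85. Others were close, with 2.05 and 1.78 for *Birc3*, 1.07 and 1.11 for *Tnip1*, and 2.43 and 2.28 for *H2-Ab1*. The reason was not tested. Of the 10 genes, 9 have a single probe, so the same comparison is not possible for them.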
